A study of Homo sapiens with 6 samples.

Results

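HOX genes encode homeodomain transcription factors that specify position along the head-to-tail axis of the embryo. They lie in 4 clusters, HOXA to HOXD, in which genes at one end of a cluster act in anterior tissue and genes at the other end in posterior tissue and in distal limb. Genes with the same number in different clusters are paralogues. Adult mesenchymal cells, including those of bone marrow, keep a HOX pattern that reflects the site from which they came. Noncoding RNAs such as HOTAIR, HOTTIP and HOTAIRM1 are transcribed from the same clusters.

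Members were chosen by symbol: HOXA, HOXB, HOXC or HOXD followed by a number, the antisense RNAs named HOXA-AS to HOXD-AS, and HOTAIR, HOTTIP and HOTAIRM1. This gave 53 of the 58735 genes in the count table, 39 of them protein-coding and 14 noncoding. They carry 52 symbols, because HOXC5 stands on 2 gene IDs. HOXA held 15 members, HOXB 14, HOXC 14 and HOXD 10. HOXA lies on chromosome 7. In GRCh38 coordinates HOXB spanned chr17:48528526-48729178, HOXC chr12:53938765-54056030 and HOXD chr2:176092891-176190907.

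RNA was sequenced from UE7T-9 cells, a mesenchymal stem cell line from human bone marrow, in 3 control libraries of wild-type genotype and 3 libraries of UE7T-9 SRRM4 KO cells. SRRM4 is a splicing regulator best known in neurons. The KO line was made with CRISPR and a lentiviral vector and grown from 1 cell, so it is 1 clone, and by the study's methods SRRM4 protein was lowered but not fully lost. Loss of SRRM4 and a difference between clones therefore cannot be told apart. The labels do not say that the libraries of a group came from separate cultures, so the p-values measure only the spread between these libraries.

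Libraries held between 21496117 and 23868323 counts, and 3 counts, the limit that a count of 0 allows, equalled 0.123 to 0.139 CPM, the count normalized for library size. SRRM4 had 0 counts in all 6 libraries, so its RNA did not check the labels. Control replicate 1 differed more from both other controls than those did from each other, and had 22403 detected genes, against 20127 to 20674 in the other 5 libraries. All 8 mesenchymal markers were detected, with a summed level of 29400 to 32600 CPM in control and 13800 to 15400 CPM in KO cells. COL1A1 made up most of the sum, at 26000 to 29300 and 10900 to 12600 CPM, and the markers did not move together: COL1A1, PDGFRB and THY1 fell (log2 fold changes of -1.23, -2.14 and -2.43) and CD44 rose (1.39). Of 5 blood markers 3 had over 3 counts in a library, with sums of 20.1 to 21.5 CPM in control and 17.9 to 21.0 in KO cells, almost all of it CD14 and CD34, while PTPRC was at 2 counts or fewer. Of 3 epithelial markers CDH1 alone had over 3 counts (sums of 0.6 to 1.75 and 0.404 to 0.575 CPM), and of 3 endothelial markers VWF alone (0.941 to 2.18 and 1.03 to 1.15 CPM). The neural list summed to 66.4 to 86.2 and 61.1 to 66.6 CPM, nearly all from MAP2, with SOX2 at 1 count or fewer. The part of these markers in the results on HOX genes was not tested. In RNA from whole cultures, fewer cells of a type and less RNA per cell cannot be told apart.

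The HOX genes expressed in UE7T-9 cells were mostly posterior members of HOXA, HOXC and HOXD, while HOXB was nearly silent. Levels between genes are given in RPKM, counts per kilobase of gene length in a library scaled to CPM. Of the 53 members, 45 had more than 3 counts in at least 1 library. A mean above 1 RPKM was reached by 14 members, all protein-coding, of which 7 lay in HOXA, 0 in HOXB, 5 in HOXC and 2 in HOXD. Paralogues 9 to 13 made up 63.7% ± 0.429 of the summed HOX RPKM in control and 65.1% ± 0.772 in KO cells (SD, n = 3 each). Paralogues 4 to 8 made up 26.5% ± 1.01 and 25.1% ± 1.14, and paralogues 1 to 3 made up 3.79% ± 0.873 and 4.98% ± 0.629. Paralogue 10 had the largest share of any paralogue, 34.0% ± 1.53 in control and 35.1% ± 0.982 in KO cells.

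**Figure D1:**
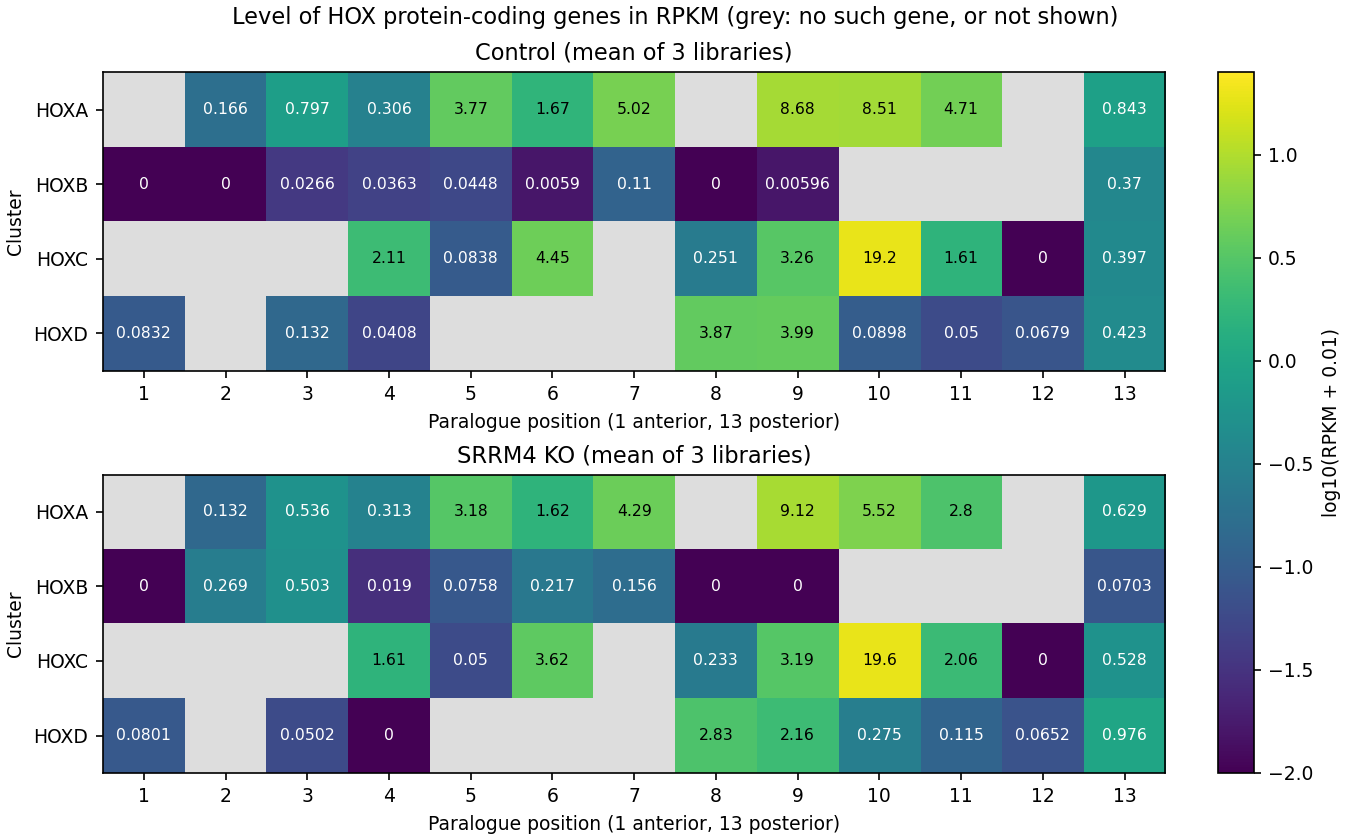
Mean level of each protein-coding HOX gene (n = 3 libraries per group) by cluster (rows) and paralogue number (columns) in control and SRRM4 KO cells, as log10 of RPKM with 0.01 added, where grey cells have no such gene or are not shown. HOXC10 was the highest in both groups, at 19.2 and 19.6 RPKM, and no HOXB gene passed 1 RPKM.

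HOXC10, a gene of the lumbar level and the hindlimb, was the most highly expressed HOX gene in both groups. It had 893, 1050 and 995 counts in control replicates 1 to 3 and 1077, 1147 and 922 in KO replicates 1 to 3, or 19.2 ± 1.62 and 19.6 ± 1.47 RPKM. The groups overlapped, and the log2 fold change of KO over control was 0.03 (SE 0.103, edgeR quasi-likelihood adjusted p = 0.842). HOXA9, which also acts in blood progenitors, followed, and its counts were 594, 479 and 653 in control against 630, 631 and 631 in KO cells. Its groups overlapped too, with a log2 fold change of 0.07 (SE 0.124, edgeR adjusted p = 0.689). Next by RPKM were HOXA10, HOXA7, HOXC6, HOXA11, HOXA5, HOXD8, HOXC9 and HOXD9. Exons of several of these genes are shared with a neighbour, for 62.5% of the exon bases of HOXA7 and 27.0% of those of HOXA9. Over unshared exon bases alone, HOXA7 had a mean of 12.4 RPKM and HOXA9 12.2, so their order depends on the length used. The libraries were not stranded, so reads from overlapping and antisense genes cannot be told apart.

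For the comparison of the groups, 30 members had enough counts to be tested, 22 protein-coding and 8 noncoding. A gene was called when its edgeR p, adjusted over all 15341 genes tested, was under 0.05 and its log2 fold change was beyond 1. By this rule 3 HOX members rose in SRRM4 KO cells (HOXB2, HOXB3 and HOXD13) and 2 fell (HOXB13 and HOTAIR), which is 5 of 30 or 16.7%. Of all genes tested 12.6% were called, 5.45% higher and 7.14% lower. HOXB2, HOXB3 and HOXB13 passed the filter on low counts only through the group where they were high, so that a difference was a condition of their being tested, and nothing is read from the share of members called. On GRCh38, HOXB2 (ENSG00000173917) lies at chr17:48540894-48544989, HOXB3 (ENSG00000120093) at chr17:48548870-48604912, HOXB13 (ENSG00000159184) at chr17:48724763-48729178 and HOTAIR (ENSG00000228630) at chr12:53962308-53974956, all on the minus strand. HOXD13 (ENSG00000128714) lies on the plus strand at chr2:176092891-176095938. With the adjusted p alone, 3 members were higher and 5 lower, or 26.7%, against 41.6% of all genes, of which 20.7% were higher and 20.9% lower. The CPM of the groups did not overlap for 11 of the 30 members, or 36.7%, against 51.8% of all genes. The median log2 fold change of the 30 members was -0.22, with 9 above 0 and 21 below, and that of all genes tested was -0.005, with 7597 above and 7744 below.

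**Figure D2:**
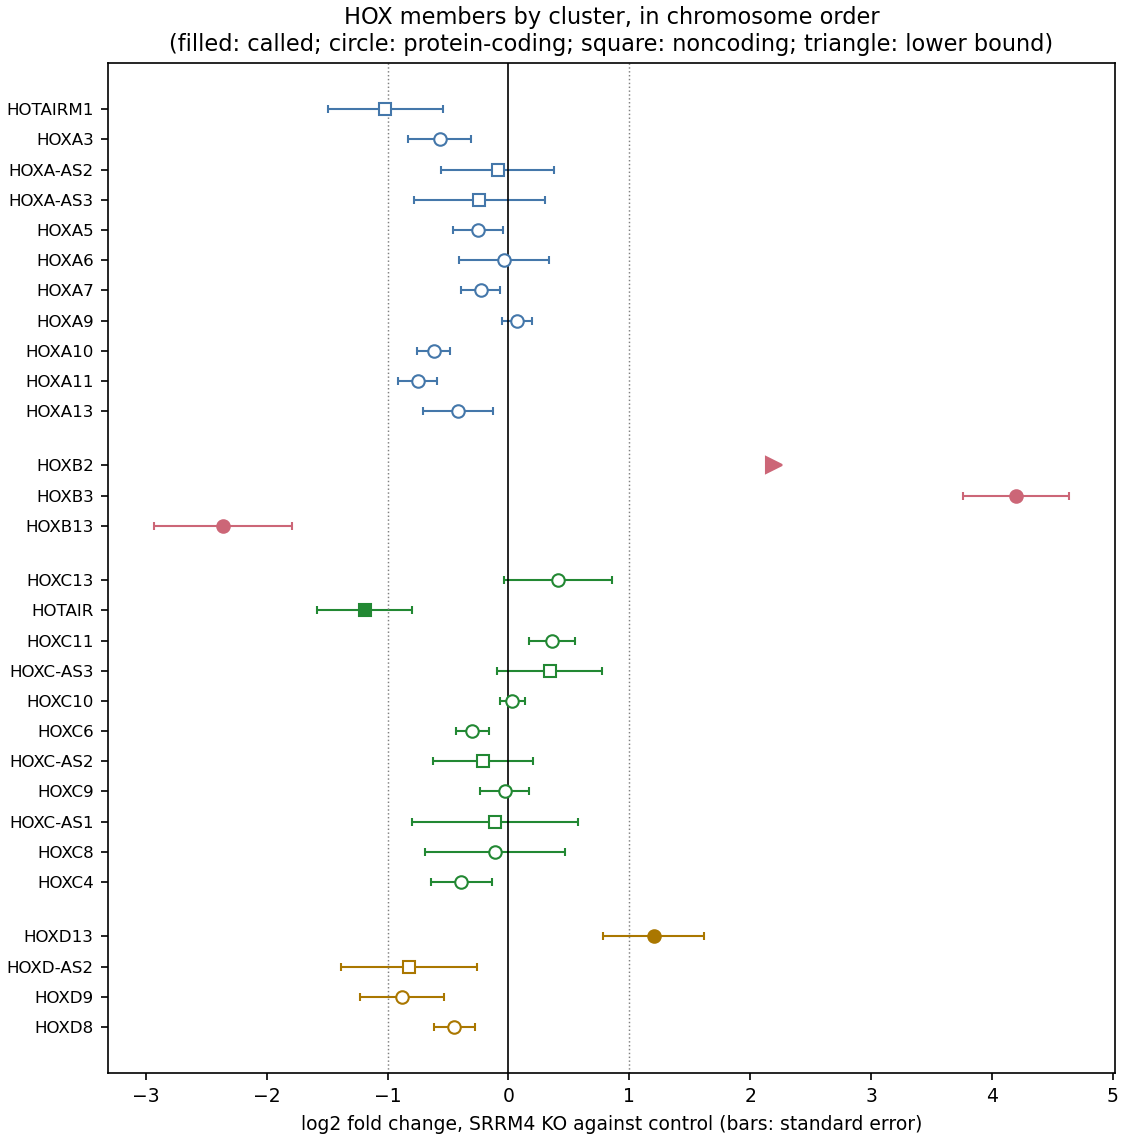
Log2 fold change of SRRM4 KO over control for tested members in chromosome order within each cluster, with bars for the standard error, filled symbols for called members and dotted lines at the fold threshold. HOXB2 is drawn as a lower bound of 2.20 because its control libraries had 0 counts, HOXB3 lies at 4.20 and HOXB13 at -2.36.

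By cluster, the called members came from HOXB, HOXC and HOXD. In HOXB the filter left 3 of 14 members, and since members low in both groups were not tested, no share called is read from them. In HOXA 0 of 12 tested members were called, in HOXC 1 of 11 and in HOXD 1 of 4, beside 12.6% of all genes tested. With so few members, no difference between clusters is read from these counts. The median log2 fold change was -0.24 in HOXA, -0.11 in HOXC and -0.63 in HOXD, beside -0.25, -0.05 and -0.25 for all tested genes of their chromosomes 7, 12 and 2. The HOXD median rested on 4 members and was -0.25 with no filter on low counts. By position, the called anterior genes (paralogues 1 to 3) were HOXB2 and HOXB3. Of 7 tested central genes (paralogues 4 to 8) 0 were called, again beside 12.6% of all genes. Their values all lay below 0, from -0.45 to -0.04. With single libraries left out, HOXA6 ranged from -0.51 to 0.19 and HOXC8 from -0.34 to 0.09. Of 11 tested posterior genes (paralogues 9 to 13) HOXD13 rose and HOXB13 fell.

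HOXB2 and HOXB3, anterior genes that pattern the hindbrain, were undetected or near the limit of detection in control and present in KO cells. The KO libraries held 18, 13 and 12 counts of HOXB2, against 0 in each control. Its mean in KO cells was 0.629 ± 0.155 CPM, at least 4.58-fold higher than 3 counts per control library (edgeR adjusted p = 0.000692). HOXB3 had 2, 6 and 5 counts in control and 76, 109 and 74 in KO cells, or 0.198 ± 0.0957 and 3.75 ± 0.629 CPM. The groups did not overlap, and HOXB3 was 18.4-fold higher in KO cells, a log2 fold change of 4.20 (SE 0.436, edgeR adjusted p = 1.76e-06). With gene length taken into account, HOXB3 in KO cells still reached only 0.503 ± 0.0843 RPKM. HOXB2 shares 3.7% of its exon bases with HOXB-AS1. HOXB3 shares 13.2% with HOXB-AS1, HOXB-AS3, HOXB4 and HOXB6.

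HOXB6, a central gene in the same stretch of the cluster, had too few counts for the test. It had 1, 0 and 0 counts in control and 7, 17 and 15 in KO cells, a ratio of 37.2 with an exact 95% interval of 6.3 to 1510 that covers counting error only. With no filter on low counts its log2 fold change was 4.77 (edgeR adjusted p = 0.00203), in a fit where 7.88% of all genes were called. With DESeq2 it was 5.11 (adjusted p = 0.00427), where 10.7% of all genes were called. HOXB6 shares 32.9% of its exon bases with HOXB-AS3 and HOXB3. Genes between and beside these did not show the same separation of the groups. HOXB4 had 0, 4 and 5 counts in control and 0, 3 and 2 in KO cells, HOXB5 had 3, 1 and 2 against 1, 8 and 2, and HOXB7 had 2, 5 and 4 against 5, 12 and 0. HOXB1, HOXB8, HOXB-AS1, HOXB-AS2 and HOXB-AS4 had 0 counts in every library.

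HOXB13, at the posterior end of HOXB and best known in prostate, moved in the other direction. It had 17, 39 and 28 counts in control and 4, 9 and 4 in KO cells, or 1.28 ± 0.513 and 0.244 ± 0.109 CPM. The groups did not overlap, and HOXB13 was 5.12-fold lower in KO cells, a log2 fold change of -2.36 (SE 0.573, edgeR adjusted p = 0.00383). It shares no exon bases with another gene. HOXB9, the other posterior gene of HOXB, had 1 count in 1 library and 0 in the others.

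**Figure D3:**
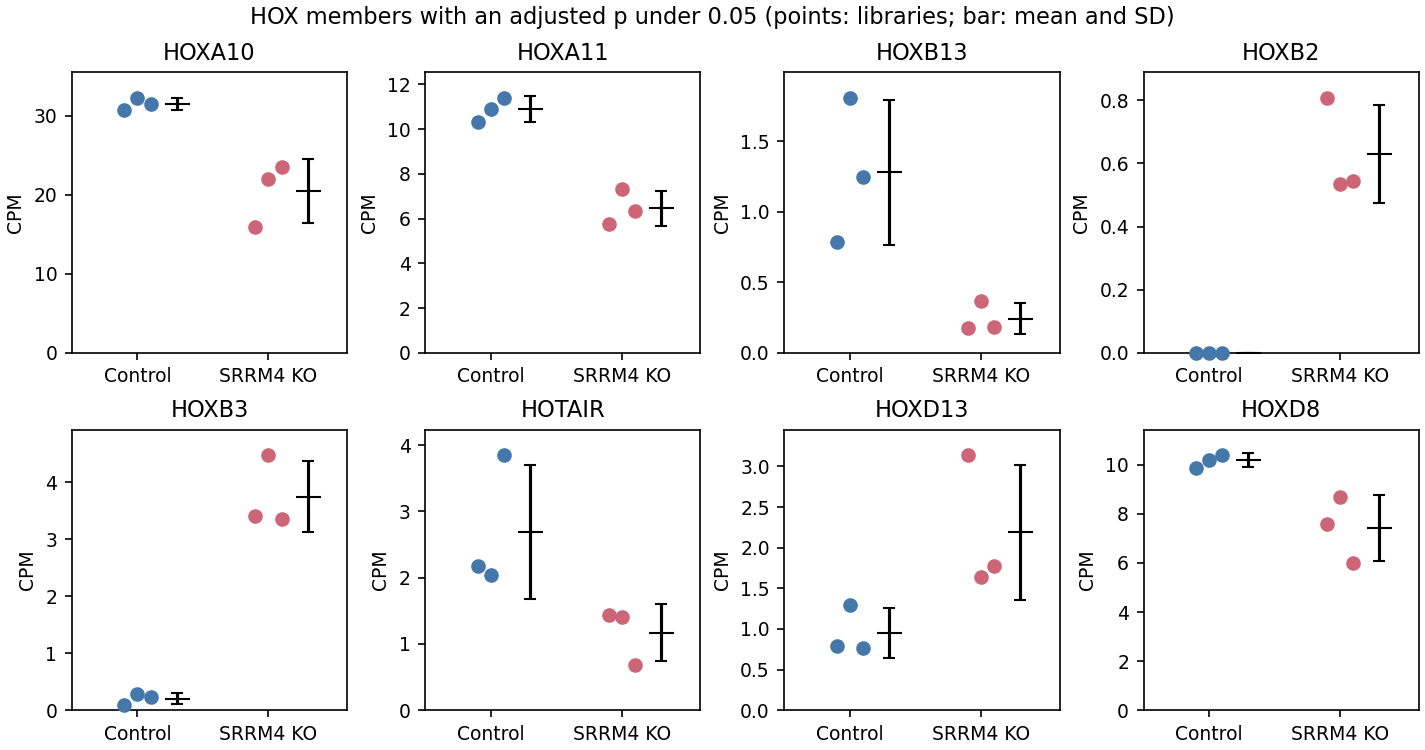
CPM in each of the 6 libraries for the 8 HOX members with an adjusted p under 0.05, with points for libraries and bars for the mean and SD (n = 3 each). The groups do not overlap for HOXB2, HOXB3, HOXB13, HOXD13, HOTAIR, HOXA10, HOXA11 or HOXD8.

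HOXD13 and HOTAIR passed the threshold with less margin. HOXD13, the most posterior HOXD gene, which shapes the digits, had 17, 28 and 17 counts in control and 70, 40 and 39 in KO cells. The groups did not overlap, and its log2 fold change was 1.20 (SE 0.416, edgeR adjusted p = 0.0306). It was called in 3 of the 6 fits that left out 1 library. Its adjusted p was 0.0707 without control replicate 1, 0.0934 without control replicate 3 and 0.195 without KO replicate 1, where the log2 fold change was 0.84. HOTAIR, a noncoding RNA transcribed antisense to the HOXC genes between HOXC11 and HOXC12, had 47, 44 and 86 counts in control and 32, 34 and 15 in KO cells. The groups did not overlap, and the log2 fold change was -1.19 (SE 0.394, edgeR adjusted p = 0.024). The call was lost without control replicate 3, at -0.84 (adjusted p = 0.163), and without KO replicate 3, at -0.93 (adjusted p = 0.0835).

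In HOXA the neighbours HOXA10 and HOXA11 fell by less than the fold threshold. HOXA10, known for its part in the uterus and hindlimb, had 668, 696 and 703 counts in control and 354, 536 and 517 in KO cells, or 8.51 ± 0.199 and 5.52 ± 1.09 RPKM. Each KO library was below each control library, and the log2 fold change was -0.62 (SE 0.139, edgeR adjusted p = 0.00205). HOXA11, needed in the forearm and lower leg, had 223, 234 and 255 counts in control and 128, 178 and 139 in KO cells. Its groups did not overlap either, with a log2 fold change of -0.75 (SE 0.161, edgeR adjusted p = 0.00164). HOXA9, beside HOXA10 on the other side from HOXA11, did not pass the test, as given above. HOXA10 shares 26.3% of its exon bases and HOXA11 31.1% with other genes.

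HOXA7 had 224, 260 and 310 counts in control and 245, 270 and 197 in KO cells, with overlapping groups and a log2 fold change of -0.23 (edgeR adjusted p = 0.285). HOXA3 had 77, 74 and 74 counts in control and 48, 53 and 57 in KO cells. These groups did not overlap, but the log2 fold change of -0.57 did not pass the test (edgeR adjusted p = 0.092). HOXA5, HOXA6 and HOXA13 had log2 fold changes between -0.42 and -0.04, and none of these passed the test. HOXA2 and HOXA4, with at most 21 counts in a library, were not tested.

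Promoter sequence is shown for HOXA9, HOXA10 and HOXA11, adjoining posterior HOXA genes, and for HOXD13, the called coding member with a promoter entry. The genes were chosen for display after their values were seen, and the difference between HOXA9 and its neighbours was not tested. Each run is the 250 bases before a RefSeq start in GRCh38.p14, read 5′ to 3′ on the gene's strand, from chr7:27165538-27165787 (minus strand) for HOXA9, chr7:27174321-27174570 (minus) for HOXA10, chr7:27185233-27185482 (minus) for HOXA11 and chr2:176092471-176092720 (plus) for HOXD13. HOXA10 has a second RefSeq start, whose window at chr7:27179862-27180111 holds both of the motifs named next and 19 CG dinucleotides, lies wholly in coding-transcript exons and is not shown. Capitals mark TATAAA and CCAAT and their reverse complements TTTATA and ATTGG.
HOXA9: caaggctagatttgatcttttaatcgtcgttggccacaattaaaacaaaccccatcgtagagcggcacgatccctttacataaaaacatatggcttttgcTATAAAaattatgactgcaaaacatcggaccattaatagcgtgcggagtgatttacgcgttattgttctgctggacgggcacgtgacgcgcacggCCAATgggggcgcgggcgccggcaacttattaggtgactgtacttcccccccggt
HOXA10: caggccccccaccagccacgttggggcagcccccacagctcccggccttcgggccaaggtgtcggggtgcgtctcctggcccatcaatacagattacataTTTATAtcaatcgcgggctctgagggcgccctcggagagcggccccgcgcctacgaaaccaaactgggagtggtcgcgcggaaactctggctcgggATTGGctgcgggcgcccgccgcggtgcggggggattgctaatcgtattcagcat
HOXA11: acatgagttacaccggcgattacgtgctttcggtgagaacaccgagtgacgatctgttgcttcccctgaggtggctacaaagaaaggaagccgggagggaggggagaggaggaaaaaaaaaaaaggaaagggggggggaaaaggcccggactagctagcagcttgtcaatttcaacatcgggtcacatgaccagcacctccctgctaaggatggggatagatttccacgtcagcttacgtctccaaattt
HOXD13: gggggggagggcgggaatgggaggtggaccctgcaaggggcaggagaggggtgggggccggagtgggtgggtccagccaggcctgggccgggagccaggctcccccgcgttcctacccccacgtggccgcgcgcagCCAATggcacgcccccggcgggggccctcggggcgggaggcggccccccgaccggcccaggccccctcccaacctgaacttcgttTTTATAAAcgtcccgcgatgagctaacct

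The printed windows of HOXA9, HOXA10 and HOXD13 hold both TATAAA and CCAAT, and that of HOXA11 holds neither. The HOXA9 window has 20 CG dinucleotides, HOXA10 24, HOXA11 11 and HOXD13 21, against a median of 11 over 34941 promoters of the same length. Over both strands, CCAAT was in 22 of 35 distinct windows of the 28 members with an entry, against 32.0% of all promoters, and TATAAA was in 6 of 35, against 10.8%. These matches describe the sequence and were not tested as sites.

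In HOXC, 0 of the 7 tested protein-coding genes passed the test, beside 41.6% of all genes tested. HOXC6 had 304, 345 and 384 counts in control and 291, 295 and 291 in KO cells. Its groups did not overlap, yet the log2 fold change of -0.30 did not pass the test (SE 0.137, edgeR adjusted p = 0.0934). HOXC9 had 103, 121 and 135 counts in control and 99, 153 and 118 in KO cells, with a log2 fold change of -0.03 (edgeR adjusted p = 0.929). HOXC4, HOXC8, HOXC11 and HOXC13 had log2 fold changes between -0.39 and 0.41 and did not pass the test. HOXC12 had 0 counts in every library, and HOXC5 at most 6.

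In HOXD, the members above 1 RPKM were HOXD8 and HOXD9. HOXD8 had 214, 220 and 233 counts in control and 169, 212 and 132 in KO cells. The groups did not overlap, and the log2 fold change of -0.45 passed the test without reaching the fold threshold (SE 0.17, edgeR adjusted p = 0.0443). With DESeq2 the adjusted p was 0.0863 and with no filter in edgeR 0.059. It was over 0.05 without control replicate 2 (0.0878), control replicate 3 (0.1), KO replicate 1 (0.0833) or KO replicate 3 (0.164). HOXD9, active in limb and lumbar segments, had 112, 167 and 211 counts in control and 138, 106 and 35 in KO cells. The groups overlapped, and the log2 fold change was -0.88 (SE 0.348, edgeR adjusted p = 0.0548). HOXD9 was called lower without control replicate 1, at -1.09 (adjusted p = 0.00705), and without KO replicate 1, at -1.32 (adjusted p = 0.0119). It was -0.51 (adjusted p = 0.154) without KO replicate 3, -0.67 (adjusted p = 0.206) without control replicate 3 and -0.85 (adjusted p = 0.105) without control replicate 2. Below the fold threshold, its edgeR adjusted p was 0.000434 with no filter and 0.0146 with the replicate number as a block. HOXD10 had 4, 2 and 10 counts in control and 4, 32 and 16 in KO cells and was not tested. It was called higher only in the fit without KO replicate 1, at 2.04 (edgeR adjusted p = 0.0446).

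Of the 14 noncoding members 8 were tested, and HOTAIR was the only member called among them, beside 12.6% of all genes tested. Of the 8 log2 fold changes 7 were below 0, against 7744 of 15341 for all genes tested. Those of HOXA-AS2, HOXA-AS3, HOXC-AS1 and HOXC-AS2 changed sign when certain single libraries were left out. HOTAIRM1, which lies at the anterior end of HOXA and is known from myeloid cells, had 46, 25 and 20 counts in control and 16, 18 and 13 in KO cells. Its groups did not overlap, but the log2 fold change of -1.02 did not pass the test (SE 0.475, edgeR adjusted p = 0.0997). It passed where at least 10 counts in every library were required, at -1.04 (edgeR adjusted p = 0.0475), and in 0 of the 6 fits that left out 1 library. Without control replicate 1 it was -0.59 (edgeR adjusted p = 0.473). HOXA-AS2 had 18, 16 and 23 counts in control and 15, 18 and 23 in KO cells. HOXA-AS3 had 22, 34 and 16 counts against 24, 34 and 7. Both pairs of groups overlapped.

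The HOXC antisense RNAs showed no separation of the groups. HOXC-AS1 had 2, 21 and 11 counts in control and 8, 11 and 14 in KO cells. HOXC-AS2 had 24, 28 and 60 counts against 36, 40 and 25, and HOXC-AS3 had 19, 20 and 30 against 35, 37 and 20. HOXC-AS3 was the 1 noncoding member above 0, with a log2 fold change of 0.34 (edgeR adjusted p = 0.564). HOXD-AS2 had 10, 14 and 32 counts in control and 10, 13 and 10 in KO cells, with a log2 fold change of -0.82 (edgeR adjusted p = 0.268) that was -0.21 without control replicate 3. HOTTIP, from the posterior end of HOXA, had at most 6 counts in a library.

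The 23 members without a test comprised 17 protein-coding and 6 noncoding genes. Of these 7 had 0 counts in every library: HOXB1, HOXB8, HOXB-AS1, HOXB-AS2, HOXB-AS4, HOXC12 and one of the gene IDs of HOXC5. The other 16 had at most 32 counts in a library. Besides those named above they were HOXB9, HOXB-AS3, HOXD1, HOXD3, HOXD4, HOXD11 and HOXD12. HOXD3 had 8, 4 and 19 counts in control and 11, 1 and 0 in KO cells. HOXD1 was at 0 in 3 libraries and reached 11 in control replicate 3.

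Summed over a cluster, HOXA was lower and HOXB higher in each KO library than in each control library. HOXA summed to 37.5, 36.6 and 38.9 RPKM in control and 30.0, 31.8 and 31.0 in KO cells. HOXB summed to 0.402, 0.783 and 0.613 RPKM in control and 1.24, 1.72 and 1.07 in KO cells. For both, the exact two-sided permutation test gave p = 0.1, the smallest that 3 libraries against 3 allow, and 0.2 after Benjamini-Hochberg adjustment over 4 clusters. HOXC summed to 34.4 ± 3.72 and 33.3 ± 1.56 RPKM (exact permutation p = 0.7, adjusted 0.7) and HOXD to 9.34 ± 1.9 and 6.89 ± 1.96 RPKM (exact permutation p = 0.3, adjusted 0.4). As a share of the summed HOX RPKM, HOXB was 0.725% ± 0.201 in control and 1.84% ± 0.383 in KO cells, and HOXC 41.9% ± 2.48 and 46.0% ± 0.358. Both gave an exact permutation p of 0.1 and 0.2 after adjustment over the 4 clusters. The share of HOXA was 46.0% ± 3.1 in control and 42.8% ± 2.41 in KO cells, with overlapping groups (exact permutation p = 0.3, adjusted 0.4), so the separation of its sums was not seen in its share. The share of HOXD was 11.3% ± 1.64 and 9.44% ± 2.34 (exact permutation p = 0.5, adjusted 0.5).

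**Figure D4:**
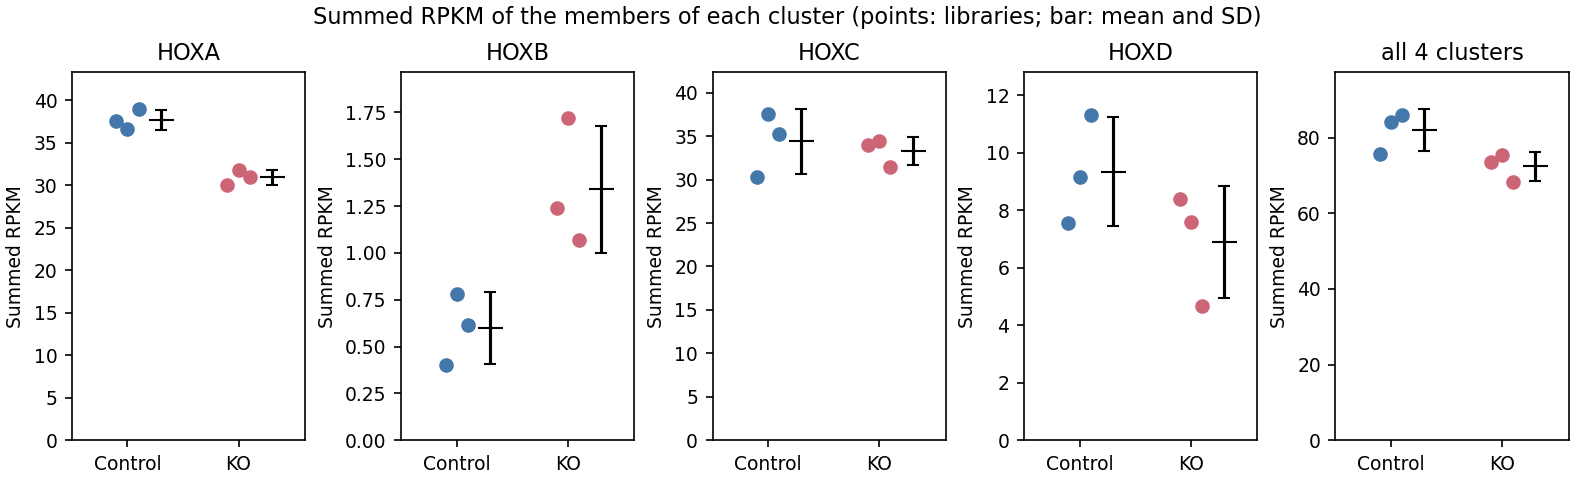
Summed RPKM of the members of each cluster in each library, with points for libraries and bars for the mean and SD (n = 3 each). HOXA lies at 36.6 to 38.9 in control and 30.0 to 31.8 in KO cells, and HOXB at 0.402 to 0.783 and 1.07 to 1.72.

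The genes around each cluster were read as a description of its place on the chromosome. Within 1 Mb of HOXB, 28 genes that are no member were tested, and 23 of their log2 fold changes were above 0, with a median of 0.64. The median of the 920 tested genes of chromosome 17 was 0.21. IGF2BP1, an RNA-binding protein gene 268.2 kb from the cluster, was called higher at 1.20, and TBKBP1 at 816.5 kb was called lower at -1.64. The medians around the other clusters were -0.05 for 11 genes at HOXA, -0.14 for 34 at HOXC and -0.09 for 8 at HOXD. At HOXA, SNX10 at 718.7 kb and NFE2L3 at 905.9 kb were called higher, at 3.47 and 1.46. At HOXC, ESPL1 was called higher at 1.67, and MAP3K12 and AC068888.1 were called lower at -1.13 and -1.17. At HOXD 0 of 8 were called. These counts stand beside 12.6% of all genes called.

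**Figure D5:**
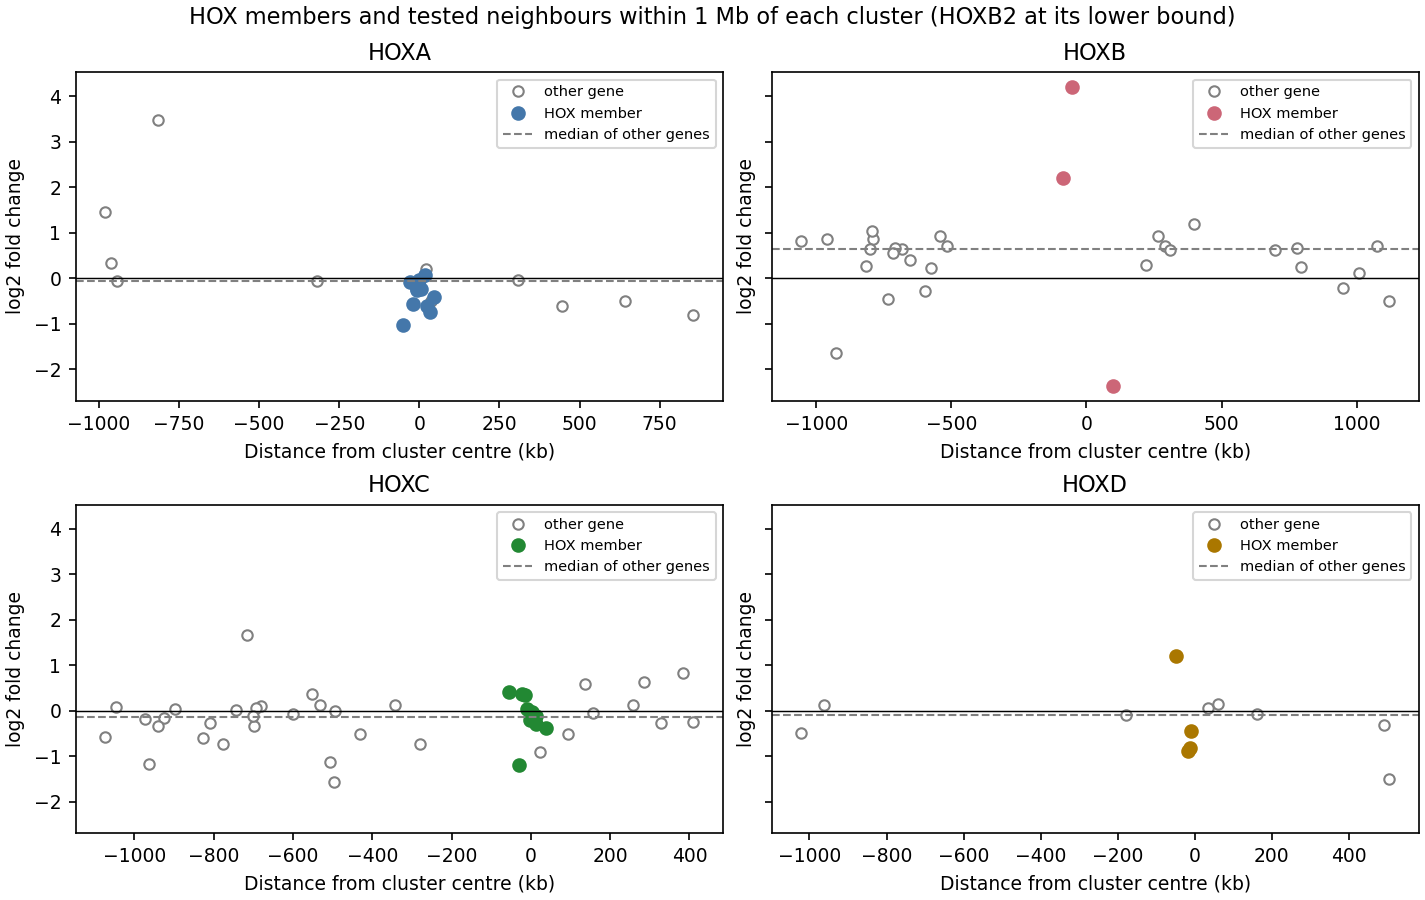
Log2 fold change of tested genes within 1 Mb of each cluster against distance from the cluster centre, with HOX members as filled points, other genes as open grey points, a dashed line at their median, and HOXB2 at its lower bound. The open points around HOXB have a median of 0.64, and those around HOXA, HOXC and HOXD have medians from -0.14 to -0.05.

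Partners and regulators of HOX genes were read from lists. HOX proteins bind DNA together with PBX and MEIS proteins. Of 9 such cofactor genes 7 were tested and 0 called, and 5 had an edgeR adjusted p under 0.05, against 41.6% of all genes. Among them, MEIS1 (-0.57) and MEIS3 (-0.85) were lower in log2 fold change and MEIS2 (0.39) and PBX3 (0.56) higher. Polycomb proteins keep HOX clusters silent and trithorax proteins keep them active. Of 23 Polycomb genes 12 had an adjusted p under 0.05, against 41.6% of all genes, and 1 was called, JARID2, against 12.6% of all genes. Its controls held 595, 682 and 540 counts and the KO libraries 250, 383 and 269, a log2 fold change of -1.09 (SE 0.152, edgeR adjusted p = 3.61e-05). Of 12 trithorax genes 0 were called, and 3 had an adjusted p under 0.05, against 41.6% of all genes. Differences of the lists from all genes were not tested.

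Retinoic acid switches on anterior HOX genes in embryos, and its pathway was read from 18 genes, 12 of them tested. CRABP2, which carries retinoic acid to the nucleus, rose from 6, 10 and 5 counts in control to 29, 36 and 19 in KO cells, a log2 fold change of 1.90 (SE 0.531, edgeR adjusted p = 0.0093). CYP26B1 and CYP26C1, enzymes that break retinoic acid down, fell. CYP26B1 had 78, 67 and 101 counts in control and 13, 15 and 33 in KO cells, a log2 fold change of -2.06 (SE 0.385, edgeR adjusted p = 0.000515). CYP26C1 had 12, 18 and 30 counts in control and 2, 0 and 3 in KO cells, a log2 fold change of -3.54 (SE 0.797, edgeR adjusted p = 0.00224). Of the 12, 4 more had an edgeR adjusted p under 0.05 without reaching the fold threshold. These were the receptors RARG (-0.74, adjusted p = 0.000104) and RARA (-0.40, adjusted p = 0.0283), the retinoic acid synthesis enzyme ALDH1A3 (-0.65, adjusted p = 0.0165) and DHRS3, which turns retinal back to retinol (0.65, adjusted p = 0.00427). RARB, RXRA, RXRB, RDH10 and ALDH1A2 were tested and did not pass, with RARB at -0.09 (edgeR adjusted p = 0.904). CRABP2 and CYP26C1 passed the filter on low counts only through the group where they were high, so no share called is read from this list. The part of retinoic acid in the results on HOX genes was not tested. Of 8 homeobox genes of the ParaHox group and of the cluster ends, such as CDX2 and EVX1, 0 had enough counts to be tested.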

How the data were processed

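Non-stranded mRNA-seq of 3 control and 3 SRRM4 KO libraries was analysed. The authors deposited unnormalized read counts for each gene, and the submitters' processing notes name HISAT2 2.0.5, featureCounts 1.5.0-p3 and DESeq2. How reads shared by overlapping genes were counted, and the genome build, are not given in the sources used here. All 58735 gene IDs and coordinates equalled those of GENCODE release 29 (GRCh38).

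Counts were tested with edgeR 4.0.16 in R 4.3.3 (TMM, filterByExpr, prior count 0.125, quasi-likelihood test, Benjamini-Hochberg adjustment over 15341 genes). The standard error came from the log2 fold change and F. CPM used TMM-scaled library sizes, and RPKM divided CPM by the gene length in the table. Cluster sums were compared with exact two-sided permutation tests in SciPy 1.17.1. Promoters came from RefSeq (GRCh38.p14). On simulated data for this comparison, 183 of 200 genes changed by 2 (log2) among 15025 tested were recovered, and 5 others were called.

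Per-library values are given for called members, members with an adjusted p under 0.05, the 3 highest by RPKM per cluster and tested noncoding members. HOXA3, HOXB4 to HOXB7, HOXD1, HOXD3 and HOXD10 were named after their values were seen. Some genes are counted but not reported singly here. Members and lists were chosen with earlier results of these data known. Alternatives were DESeq2 1.42.0, its size factors, upper-quartile scaling, no filter, a minimum of 10 counts per library, a block for the replicate number, leaving out each library, no fold threshold, other flank widths and CPM in place of RPKM.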

Additional observations from a re-analysis of the deposited data

How the results depend on the processing

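For the members that were followed singly, 247 values under other settings were scored by direction and by the call, which joins adjusted p and fold. Of these 226 kept both, 5 lost the call, 3 gained it and 13 changed sign, the last all in members that were not called. A crossing of 0.05 by the adjusted p alone was not scored, and this happened for HOXD8, HOXD9 and HOXC6. Leaving out each library moved the log2 fold change from -0.3 to 0.05 for HOXA-AS2, -0.66 to 0.16 for HOXA-AS3, -0.04 to 0.15 for HOXA9, -0.6 to 0.7 for HOXC-AS1, -0.45 to 0.28 for HOXC-AS2, -0.03 to 0.09 for HOXC10 and -0.16 to 0.08 for HOXC9. HOX calls were 3 higher and 2 lower with DESeq2 size factors and with upper-quartile scaling, and 4 and 2 with DESeq2 and with no filter, where HOXB6 was added. Requiring at least 10 counts in every library left 1 higher, since HOXB2 and HOXB3 were then not tested, and 2 lower, HOTAIR and HOTAIRM1, since HOXB13 was not tested. Without the fold threshold 5 members were lower, and over all genes 3171 were higher and 3213 lower. Leaving out each library gave 3 to 4 higher and 1 to 3 lower, but not always the same members. HOXD13 was called in 3 of 6 fits, HOXB6 in 4 of the 4 fits that tested it and HOXD10 in 1 of 4. Among those lower, HOXD9 was called in 2 of 6 fits, and HOTAIR was lost without control replicate 3 and without KO replicate 3. By groups that do not overlap, a criterion chosen after seeing the data, 8 tested members were lower, where 51.8% of all genes tested separated in either direction. With the replicate number as a block the calls were 3 higher and 2 lower, and 842 and 1093 over all genes, and no call of a member changed, while HOXC-AS1 turned to 0.12. Same-numbered libraries had correlations of -0.05, 0.08 and -0.05, so the numbers did not pair the samples. With no filter the median log2 fold change was -0.16 for all members, 0.73 for HOXB and -0.25 for HOXD. Around HOXB it was 0.72 within 0.5 Mb and 0.55 within 2 Mb, around HOXC -0.05 within 0.5 Mb and around HOXD -0.21 within 2 Mb. Shares from CPM in place of RPKM were 49.9% and 45.8% for HOXA in control and KO cells, 3.01% for HOXB and 43.0% for HOXC in KO cells and 9.6% for HOXD in control. With gene length taken over exon bases that no other gene shares, chosen after seeing the data, HOXA7 had a mean of 12.4 RPKM and HOXA9 12.2, while HOXC10 stayed highest at 21.6. Of simulated changed genes with a mean under 5 CPM, 41 of 58 were recovered. All HOXB members had means under 5 CPM, and 3 of 14 passed the filter on low counts. Recovery at the levels of HOXB was not tested.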

Other observations

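Homeobox genes that are no HOX member were also read, as the 155 other genes that the count table places in the homeobox family, a list chosen after the data were seen. Of these, AC004080.3 and AC012531.2 share exons with HOX members and had 0 counts in every library. In all 58 were tested, and 1 was called higher and 12 lower, beside 5.45% and 7.14% of all genes tested. Of the latter, CERS4, DLX3, EN1, ISL2, NKX6-1 and PRRX2 passed the filter on low counts only through the control group, so no share called is read from this list. The gene called higher was NKX3-2, a repressor in cartilage formation, with 158, 228 and 196 counts in KO cells and 23, 49 and 43 in control (log2 fold change 2.27, SE 0.259, edgeR adjusted p = 4.96e-06).

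NKX6-1, known from pancreatic beta cells and motor neurons, had 96, 118 and 105 counts in control and 1, 2 and 1 in KO cells (edgeR adjusted p = 3.93e-08). PRRX2, a gene of limb and craniofacial mesenchyme, had 140, 165 and 220 counts in control and 7, 32 and 2 in KO cells, a log2 fold change of -3.75 (edgeR adjusted p = 1.33e-05). Of the DLX genes, which act in bone and branchial arches, DLX2 (-1.06), DLX3 (-3.29), DLX4 (-1.41) and DLX5 (-1.28) fell. ISL2, EN1, CERS4, GSC, TGIF2 and GBX2 were also called lower.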
